A study of Homo sapiens with 18 samples.

Results

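The 34 genes described here encode the enzymes that make cholesterol and fatty acids, the proteins that sense sterols and switch those enzymes on, and 3 proteins that move cholesterol inside or out of the cell. They were taken by gene symbol from the 2 deposited expression tables, where they are 34 of 25369 gene names, by a rule that sets no threshold on a measured value. By role they fall into 5 genes of the SREBP system, 7 of the mevalonate pathway, 10 of the steps from squalene to cholesterol, 3 of sterol transport and 9 of fatty acid synthesis. The study sequenced 18 RNA libraries from MAVER and JEKO1, established human cell lines of mantle cell lymphoma, a B cell cancer, after 6 h of treatment in serum-containing medium. MAVER cells were given PU, KPT, IB or DMSO, the solvent control, and JEKO1 cells were given IB or DMSO, with 3 libraries in each of the 6 groups, called A, B and C. From the series' design text, IB is read as ibrutinib at 0.4 µM, which blocks the B cell receptor kinase BTK, and KPT as selinexor at 1.5 µM, which blocks the nuclear export receptor XPO1. PU is given as the labels write it, since they state neither what it is nor its dose. The series title sets ibrutinib-sensitive against ibrutinib-resistant cells without saying which line is which.

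Cells keep their sterol level by a feedback loop. Precursors of the transcription factors SREBP-1 and SREBP-2, made from SREBF1 and SREBF2, sit in the endoplasmic reticulum bound to the escort SCAP. While sterols are plentiful, the INSIG proteins hold SCAP there, and when sterols fall, SCAP carries the precursors to the Golgi, where they are cut and freed to enter the nucleus. SREBP-2 is known mainly for cholesterol genes and SREBP-1 mainly for fatty acid genes, and INSIG1 is a target of the pathway it restrains. A separate arm, the liver X receptors, answers to oxysterols and is known to raise the cholesterol exporters ABCA1 and ABCG1 and also SREBF1. Lymphoma cells use both products for the membranes of dividing cells.

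Each library held between 5374226 reads (a KPT library) and 17040599 reads (a PU library), recovered from the normalized counts, and KPT libraries were the shallowest group at 5374226 to 7924550 reads. The lowest value of any listed gene in any library was 47.8 normalized counts, which came from 45 reads, and all 34 passed the filter of a mean of at least 10 in both tables. A normalized count is a read count divided by 1 size factor per library, so it compares libraries for 1 gene and not 2 genes of different length, and the tables of MAVER and JEKO1 were scaled separately. Of the B cell and mantle cell lymphoma markers, 7 lay between 574 and 59040 normalized counts and CD5 between 20.03 and 423, while 14 markers of T cells, NK cells, monocytes, fibroblasts and hepatocytes reached at most 16.7. In such bulk samples fewer cells of a type and less RNA per cell cannot be told apart. RNA45S5, the ribosomal RNA precursor, was over 50000 normalized counts in KPT libraries A and C and in JEKO1 DMSO library C. XPO1 itself stood at 10947 to 11624 normalized counts in KPT libraries, against 5134 to 5333 in MAVER DMSO libraries. EGR1, an immediate early gene that follows B cell receptor signalling, had 0 to 0.963 normalized counts in MAVER IB libraries and 25.7 to 43.3 in MAVER DMSO libraries, but 195 to 227 in JEKO1 libraries labelled IB and 15.5 to 21.2 in JEKO1 libraries labelled DMSO. NR4A1, another such gene, went the same ways, with 124 to 141 under IB against 247 to 288 under DMSO in MAVER, and 267 to 315 in the libraries labelled IB against 76.3 to 90.5 in those labelled DMSO in JEKO1. For JEKO1, an exchange of the 2 labels and an opposite response of the line cannot be told apart. Every JEKO1 direction and every difference between the lines given here holds for the labels as they stand.

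PU lowered most of the listed genes in MAVER, KPT split them by role, IB changed fewer of them, and the JEKO1 libraries labelled IB had more of them higher than lower. Under PU 23 of 34 genes fell (67.6%, against 27.5% of the 11099 genes tested) and 6 rose (17.6%, against 27.6%), with a median log2 fold change of -0.32. Under KPT 15 fell (44.1%, against a background of 28.5%) and 11 rose (32.4%, against 27.3%), with a median of -0.13. Without KPT libraries A and C, the pair rich in RNA45S5, only KPT library B is left, which is assumed to vary like the libraries of the other groups. In that fit 12 listed genes were lower and 9 higher under KPT, and the genes called among all 11099 numbered 4860, against 6202 with all libraries. Under IB in MAVER 10 fell (29.4%, against 9.65%) and 3 rose (8.82%, against 10.1%), with a median of -0.11. Between JEKO1 libraries labelled IB and those labelled DMSO, 15 genes were higher (44.1%, against 21.9% of 11609 genes) and 4 lower (11.8%, against 20.2%), with a median of 0.15. The medians over all genes tested lay between -0.0062 and 0.0069 in these 4 comparisons. The higher share under KPT and the higher share under MAVER IB were near their backgrounds. A gene was called at an adjusted p under 0.05 by limma, with Benjamini-Hochberg adjustment over all genes tested. Log2 fold changes are on the log2(normalized count + 1) scale and are given ± SE of the fit, over 3 libraries a group. The p-values rest on how far these libraries vary. The labels call them biological triplicates, without saying how the cultures were kept apart.

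**Figure D1:**
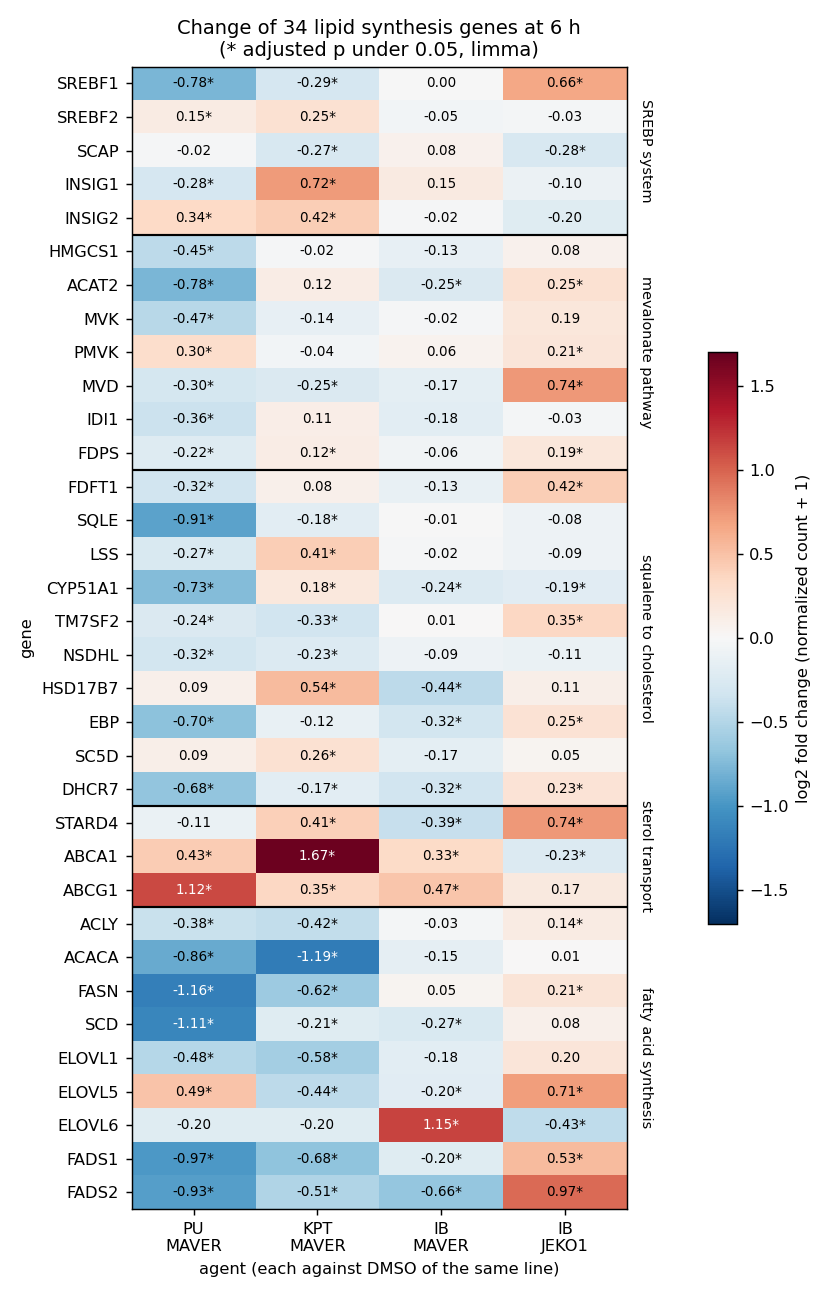
Log2 fold change of the 34 genes (rows, grouped by role) under PU, KPT and IB in MAVER and IB in JEKO1 (columns), each over DMSO of the same line, with the value printed in each cell and an asterisk where limma's adjusted p was under 0.05. The PU column is mostly blue with 23 genes lower, the KPT column is blue for fatty acid synthesis and red for sterol transport, and the JEKO1 column is mostly red with 15 genes higher.

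Summed over the 34 genes, PU libraries gave 0.304% to 0.317% of their normalized counts to the list, KPT libraries 0.369% to 0.381%, MAVER IB libraries 0.380% to 0.387% and MAVER DMSO libraries 0.397% to 0.415%. The PU libraries lay below all others of the line and the DMSO libraries above them. Such a sum weighs each gene by its counts. SREBF2, ACLY, FASN and SCD weigh most, with means in MAVER DMSO libraries from 3553 for SCD to 6251 for SREBF2. In JEKO1 the share was 0.537% to 0.582% in libraries labelled IB and 0.489% to 0.508% in libraries labelled DMSO, again without overlap.

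The SREBP system split between agents in MAVER. INSIG1, the retention factor that is also a target of the pathway, rose under KPT and fell under PU, and SREBF1, the source of SREBP-1, fell under both. SREBF2 and INSIG2 rose under both, and no gene of this group was called under IB, where the log2 fold changes lay between -0.049 and 0.15. Over all genes tested IB raised 10.1% and lowered 9.65%, so 0 calls among 5 genes say little. INSIG1 had 528, 544 and 501 normalized counts in PU libraries, 1076, 1013 and 1068 in KPT libraries, 681, 708 and 737 in IB libraries, and 642, 629.6 and 642 in DMSO libraries. KPT libraries were the highest and PU libraries the lowest, with no overlap with DMSO in either case. The log2 fold change was -0.28 ± 0.058 (adjusted p = 6.85e-05) under PU and 0.72 ± 0.058 (adjusted p = 1.02e-13) under KPT, which is 1.65-fold. SREBF1 had 180.0, 187 and 241 normalized counts in PU libraries, 308, 269.7 and 270.4 in KPT libraries, 353, 382 and 306 in IB libraries, and 324, 386 and 331 in DMSO libraries. All PU libraries and all KPT libraries lay below the DMSO libraries, PU at a log2 fold change of -0.78 ± 0.10 (adjusted p = 1.06e-08) and KPT at -0.29 ± 0.10 (adjusted p = 0.0117). The KPT call was lost without DMSO library B, where the adjusted p was 0.0989, and the adjusted p ranged from 0.00358 to 0.0989 over the alternatives run.

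SREBF2, the source of SREBP-2, had 7002, 6511 and 7235 normalized counts in PU libraries, 7670.0, 7051 and 7623 in KPT libraries, 6046, 6102 and 5961 in IB libraries, and 6360.2, 6467 and 5926 in DMSO libraries. PU and KPT libraries overlapped each other and lay above IB and DMSO libraries, at log2 fold changes over DMSO of 0.15 ± 0.043 (adjusted p = 0.00385) and 0.25 ± 0.043 (adjusted p = 3.43e-06). The PU call was lost without DMSO library C, with an adjusted p of 0.0524 and a range of 0.000656 to 0.0524 over the alternatives. INSIG2, the second retention factor, had 305, 311 and 293 normalized counts in PU libraries, 349.7, 302 and 307 in KPT libraries, 247, 229 and 233 in IB libraries, and 236, 263 and 219 in DMSO libraries. Its log2 fold change was 0.34 ± 0.088 (adjusted p = 0.00095) under PU and 0.42 ± 0.088 (adjusted p = 9.77e-05) under KPT, and the libraries of both agents lay above those of IB and DMSO. SCAP, the escort, had 682, 638 and 777 normalized counts in PU libraries, 651, 583 and 535 in KPT libraries, 766, 746 and 731 in IB libraries, and 713, 749.7 and 664 in DMSO libraries. KPT gave the only call of the 3 agents, at -0.27 ± 0.069 (adjusted p = 0.00113), and the PU and IB libraries overlapped those of DMSO.

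**Figure D2:**
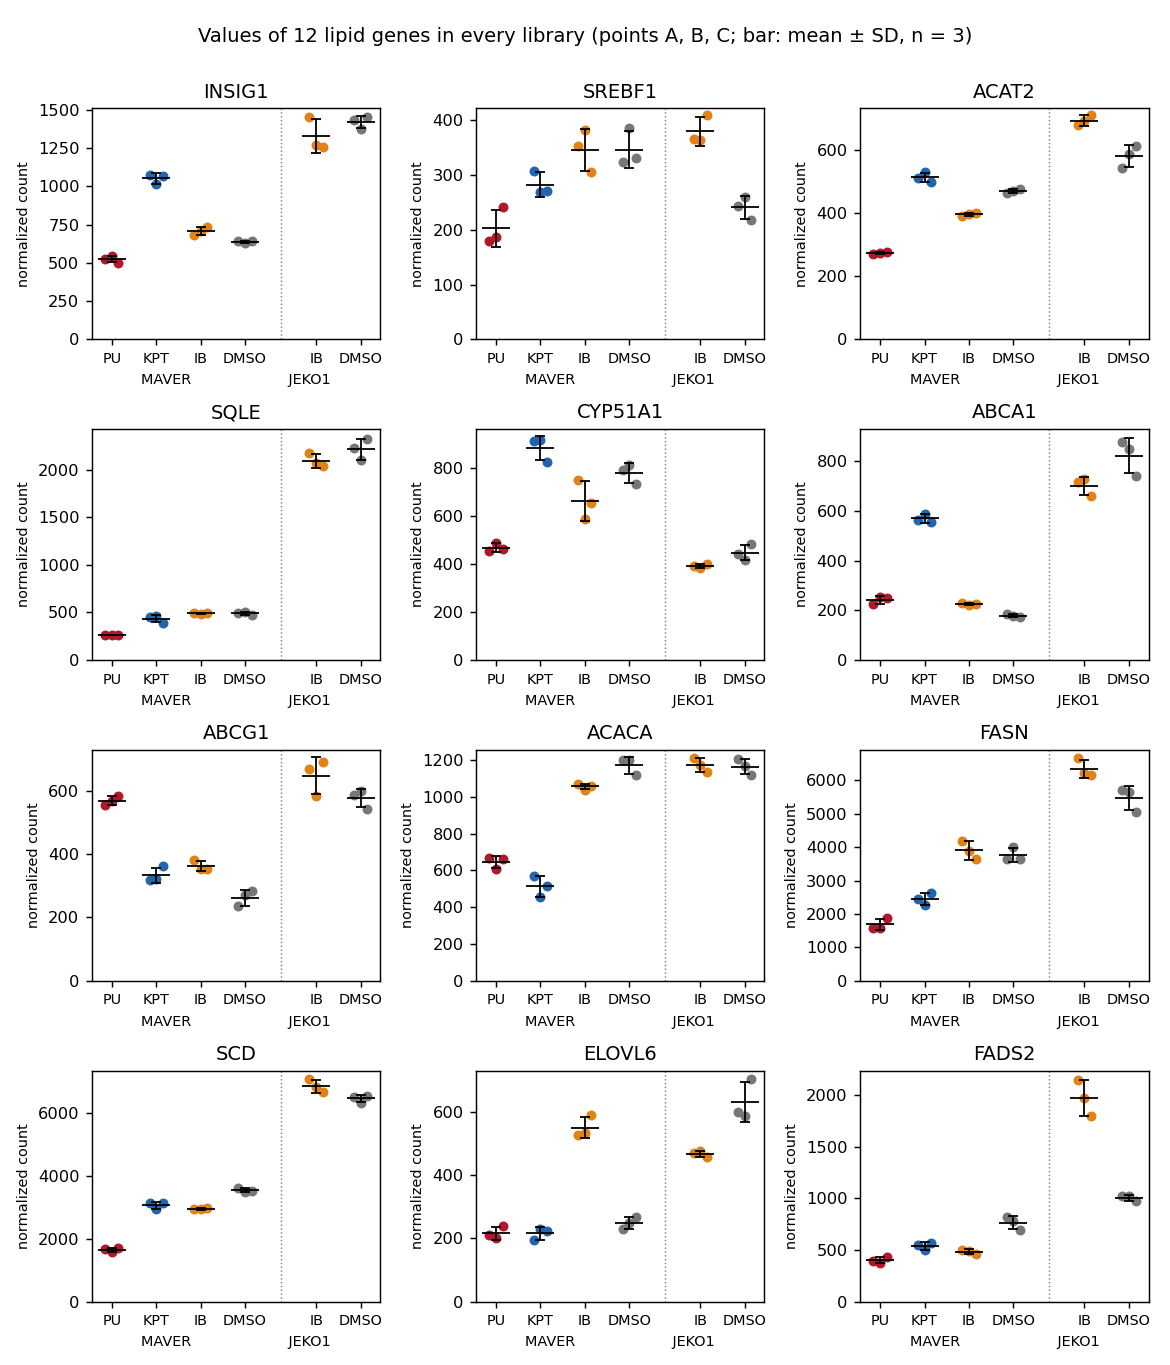
Normalized counts (linear axis from 0, one scale per panel) of 12 listed genes in every library, with points for libraries A, B and C and a bar for the mean ± SD (n = 3); PU, KPT, IB and DMSO of MAVER stand left of the dotted line, and libraries labelled IB and DMSO of JEKO1 right of it. Among the MAVER groups INSIG1 and ABCA1 are highest under KPT, SQLE and SCD lowest under PU, ACACA low under both, and ELOVL6 highest under IB.

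The upstream sequences of 4 genes, examples of sensing, synthesis and export of sterols, are shown to place 3 motifs known from this pathway: the sterol regulatory element read by SREBPs (searched as TCACNCCAC), the box read by NF-Y, a known partner of SREBPs (CCAAT), and the E-box (CACGTG), each on both strands. Capitals mark the matches, and ATTGG is CCAAT on the other strand. Each run is the 250 bases before the RefSeq transcription start in the GRCh38.p14 build, 5′ to 3′ on the gene's strand.
SREBF2, chr22:41832855-41833104, + strand: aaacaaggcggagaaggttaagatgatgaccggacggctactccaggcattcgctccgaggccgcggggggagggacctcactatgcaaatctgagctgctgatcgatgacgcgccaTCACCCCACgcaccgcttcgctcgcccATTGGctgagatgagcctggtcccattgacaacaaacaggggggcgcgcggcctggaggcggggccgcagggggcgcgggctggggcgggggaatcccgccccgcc
INSIG1, chr7:155297628-155297877, + strand: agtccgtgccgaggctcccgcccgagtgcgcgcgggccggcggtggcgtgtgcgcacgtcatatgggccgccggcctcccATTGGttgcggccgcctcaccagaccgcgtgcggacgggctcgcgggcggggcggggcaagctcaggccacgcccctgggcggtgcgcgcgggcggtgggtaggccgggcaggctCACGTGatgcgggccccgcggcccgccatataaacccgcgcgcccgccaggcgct
EBP, chrX:48521558-48521807, + strand: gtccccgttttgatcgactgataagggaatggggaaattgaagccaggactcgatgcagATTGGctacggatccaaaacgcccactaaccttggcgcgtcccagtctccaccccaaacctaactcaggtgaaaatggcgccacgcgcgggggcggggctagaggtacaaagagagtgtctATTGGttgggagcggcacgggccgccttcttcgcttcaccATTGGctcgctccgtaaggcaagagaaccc
ABCA1, chr9:104928156-104928405, - strand: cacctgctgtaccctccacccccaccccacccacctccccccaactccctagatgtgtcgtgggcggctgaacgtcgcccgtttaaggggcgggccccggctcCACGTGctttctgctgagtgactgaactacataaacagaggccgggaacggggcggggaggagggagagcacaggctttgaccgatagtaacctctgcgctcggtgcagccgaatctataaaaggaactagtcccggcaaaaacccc

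SREBF2 carried the sterol regulatory element 133 bases before its start and a CCAAT box 106 bases before it. INSIG1 carried a CCAAT box 170 bases before its start and an E-box 55 bases before it, and EBP carried 3 CCAAT boxes at 191, 70 and 30 bases. Of the 3 motifs searched, ABCA1 carried only the E-box, at 147 bases. No motif of the liver X receptors was searched, and sterol regulatory elements spelled otherwise than TCACNCCAC were not counted. RefSeq windows from 250 bases before to 50 after the start were matched for 29 of the 34 genes, 39 windows in all, some of which overlap. CCAAT stood in 25 of the 39 windows (64.1%), against 34.6% of 35116 windows of the same length over all genes. CACGTG stood in 7 (17.9%, against 7.26%) and TCACNCCAC in 1 (2.56%, against 1.13%). By gene, CCAAT was present for 21 of the 29 with a window. It was present for 16 of the 19 that fell under PU and 2 of the 5 that rose. Under KPT it was present for 10 of the 13 that fell and 7 of the 10 that rose, near the share over the 29. Under IB in MAVER it was present for 7 of the 9 that fell and 0 of the 2 that rose. In JEKO1 it was present for 0 of the 4 lower and 9 of the 12 higher in libraries labelled IB. Genes that were not called carried it too, 3 of 5 under PU and 4 of 6 under KPT. For IB these were 14 of 18 in MAVER and 12 of 13 in JEKO1. These are matches of letters, given without a test, and say nothing about whether a factor was bound. ACAT2, FDFT1, SQLE, ABCG1 and FASN were not matched.

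In the mevalonate pathway, which builds isoprenoid units from acetyl-CoA, PU lowered 6 of 7 genes (85.7%, against 27.5% of all genes tested) and raised PMVK. KPT lowered 1 and raised 1 (14.3% each, below the backgrounds of 28.5% and 27.3%), and IB lowered 1 (14.3%, near its background of 9.65%). ACAT2, the cytosolic thiolase of the first step, had 271, 273 and 276 normalized counts in PU libraries, 511, 529.8 and 499.6 in KPT libraries, 390.1, 397 and 400.4 in IB libraries, and 464, 471 and 478 in DMSO libraries. Every PU library lay below every other MAVER library, at a log2 fold change of -0.78 ± 0.069 (adjusted p = 9.1e-13). It also fell under IB, at -0.25 ± 0.069 (adjusted p = 0.00663), with no overlap between IB and DMSO libraries, while under KPT it was 0.12 ± 0.069 (adjusted p = 0.122). PMVK, the second kinase of the pathway, had 1104, 1073 and 978 normalized counts in PU libraries, 846, 760.3 and 886 in KPT libraries, 973, 866 and 845 in IB libraries, and 846, 922 and 799.7 in DMSO libraries. PU gave the only call, at 0.30 ± 0.064 (adjusted p = 0.000133). All 3 PU libraries stood above the rest, and the libraries of KPT, IB and DMSO overlapped. HMGCS1, which makes HMG-CoA, averaged 679 ± 34.7 normalized counts under PU, 912 ± 41.2 under KPT, 844 ± 15.2 under IB and 927 ± 23.5 under DMSO (mean ± SD, n = 3 each). Of the 3 agents PU gave the only call, at -0.45 ± 0.056 (adjusted p = 7.01e-09).

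The other 4 genes of the pathway were also lower under PU. MVK, the first kinase, averaged 165 ± 5.03 normalized counts under PU and 229.6 ± 20.8 under DMSO (mean ± SD, n = 3 each), a log2 fold change of -0.47 ± 0.10 (adjusted p = 7.49e-05). IDI1, the isopentenyl diphosphate isomerase, averaged 466 ± 29.2 under PU and 599.9 ± 14.0 under DMSO (n = 3 each), a log2 fold change of -0.36 ± 0.072 (adjusted p = 3.94e-05). FDPS, which makes farnesyl diphosphate, fell under PU at -0.22 ± 0.044 (adjusted p = 4.79e-05) and rose under KPT at 0.12 ± 0.044 (adjusted p = 0.0178). Both changes of FDPS were small, with means of 1618 ± 39.2 normalized counts under PU, 2054 ± 44.8 under KPT and 1887 ± 41.2 under DMSO (SD, n = 3 each). Its KPT call was lost without KPT library A (adjusted p = 0.0662) and without DMSO library B (0.0752), within a range of 0.0159 to 0.108. The highest value of that range is from the fit with KPT library B as the lone KPT library. MVD, the decarboxylase, had 239.6, 249 and 273 normalized counts in PU libraries, 278, 253 and 260.4 in KPT libraries, 322, 261 and 257 in IB libraries, and 313, 346 and 282 in DMSO libraries. PU and KPT libraries lay below DMSO, at -0.30 ± 0.093 (adjusted p = 0.00551) and -0.25 ± 0.093 (adjusted p = 0.0234). Without DMSO library B the MVD calls were lost under PU (adjusted p = 0.0587, range 0.0017 to 0.0587) and under KPT (0.161, range 0.00919 to 0.161). Leaving out KPT library B (0.0784), KPT library C (0.0567) or DMSO library A (0.0534) also ended its KPT call.

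Between squalene and cholesterol, PU lowered 8 of 10 genes (80%, against 27.5% of all genes tested) and raised none, KPT lowered 4 and raised 4 (40% each, against 28.5% and 27.3%), and IB lowered 4 (40%, against 9.65%). SQLE, the squalene epoxidase that catalyses a rate-limiting step, had 261, 262 and 259.7 normalized counts in PU libraries, 456, 462 and 389 in KPT libraries, 490.3, 486 and 494 in IB libraries, and 496, 507 and 474 in DMSO libraries. The PU libraries stood close together and far below the rest, at a log2 fold change of -0.91 ± 0.073 (adjusted p = 6.41e-14), which is 0.531 times the DMSO level. CYP51A1, the lanosterol demethylase, had 455, 489 and 463 normalized counts in PU libraries, 913, 916 and 827 in KPT libraries, 750.4, 588 and 653 in IB libraries, and 791, 814 and 732 in DMSO libraries. PU libraries were the lowest and KPT libraries the highest, with log2 fold changes over DMSO of -0.73 ± 0.069 (adjusted p = 6.21e-12) and 0.18 ± 0.069 (adjusted p = 0.0221). LSS, which closes the sterol ring, had 556, 542 and 590.1 normalized counts in PU libraries, 893, 906 and 901 in KPT libraries, 667, 693 and 647 in IB libraries, and 703, 744 and 591 in DMSO libraries. It went the same 2 ways, at -0.27 ± 0.066 (adjusted p = 0.00073) under PU and 0.41 ± 0.066 (adjusted p = 1.19e-06) under KPT, with the KPT libraries above all others of MAVER.

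EBP, the sterol isomerase, had 659, 682 and 607 normalized counts in PU libraries, 934, 954 and 1019 in KPT libraries, 816, 914 and 810.3 in IB libraries, and 1025, 1128 and 1014 in DMSO libraries. It fell under PU at -0.70 ± 0.06 (adjusted p = 5.56e-13) and under IB at -0.32 ± 0.06 (adjusted p = 8.68e-05), and both sets of libraries lay below DMSO. DHCR7, which catalyses a last reduction to cholesterol, had 1679.6, 1608 and 1783 normalized counts in PU libraries, 2480.1, 2218 and 2491 in KPT libraries, 2228, 2231 and 2039 in IB libraries, and 2656, 2715 and 2731 in DMSO libraries. All 3 agents lowered it, PU to a log2 fold change of -0.68 ± 0.049 (adjusted p = 4.19e-15), KPT to -0.17 ± 0.049 (adjusted p = 0.00266) and IB to -0.32 ± 0.049 (adjusted p = 2.64e-06), with no library at the DMSO level. The KPT call of DHCR7 was lost without KPT library B, with an adjusted p of 0.0513 and a range of 0.000662 to 0.0513. HSD17B7, a 3-ketosteroid reductase of the pathway, had 76.6, 92.9 and 86.6 normalized counts in PU libraries, 108, 128 and 117 in KPT libraries, 60.7, 70.4 and 47.8 in IB libraries, and 79.2, 91.4 and 71.1 in DMSO libraries. It rose under KPT at 0.54 ± 0.15 (adjusted p = 0.00266), with KPT libraries above all others. Under IB it was lower at -0.44 ± 0.15 (adjusted p = 0.0373), a call lost without IB library A (0.0609) or C (0.229) or DMSO library A (0.0791) or B (0.178), as adjusted p, within a range of 0.0152 to 0.229. Reads of HSD17B7, as of CYP51A1, FDPS, IDI1 and SCD, may be shared with named pseudogenes, so their levels are uncertain.

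FDFT1, the squalene synthase, fell under PU at -0.32 ± 0.057 (adjusted p = 7.36e-06) and was not called under KPT or IB. Its means were 801 ± 34.5 normalized counts under PU and 1002 ± 71.5 under DMSO (SD, n = 3 each). TM7SF2, a sterol reductase, had 265, 278 and 255 normalized counts in PU libraries, 237, 257 and 262 in KPT libraries, 332, 341 and 282 in IB libraries, and 309, 341 and 298 in DMSO libraries. PU and KPT libraries lay below DMSO, at -0.24 ± 0.087 (adjusted p = 0.0159) and -0.33 ± 0.087 (adjusted p = 0.00159), and IB libraries overlapped DMSO. Its PU call was lost without PU library C (adjusted p = 0.061) and without DMSO library B (0.106), within a range of 0.00532 to 0.106. SC5D, a sterol desaturase, had 304, 365 and 302 normalized counts in PU libraries, 351, 380.1 and 355 in KPT libraries, 260.1, 270.4 and 274 in IB libraries, and 318, 282 and 308 in DMSO libraries. It rose under KPT at 0.26 ± 0.084 (adjusted p = 0.00799), a call lost without DMSO library B (0.0569; range 0.00587 to 0.0569), and PU libraries overlapped DMSO. NSDHL, a sterol dehydrogenase, was lower under PU at -0.32 ± 0.081 (adjusted p = 0.00108) and under KPT at -0.23 ± 0.081 (adjusted p = 0.014), with means of 322 ± 17.2, 341 ± 26.4 and 402 ± 43.1 normalized counts under PU, KPT and DMSO (SD, n = 3 each). The KPT call of NSDHL was lost without KPT library C (0.108), DMSO library A (0.112) or DMSO library C (0.0626), as adjusted p, within 0.00185 to 0.156.

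Some calls of SQLE and CYP51A1 under KPT and IB also depended on single libraries. SQLE was lower under KPT at -0.18 ± 0.073 (adjusted p = 0.0338), where KPT library C was the lowest of the 3. Without that library the adjusted p was 0.282, without DMSO library A 0.0797 and without DMSO library B 0.109, and the range over all alternatives was 0.0184 to 0.477. The highest value of that range is from the fit with KPT library B as the lone KPT library. CYP51A1 under KPT lost its call without KPT library A (0.0821), KPT library B (0.0851) or DMSO library C (0.131), as adjusted p, within 0.00614 to 0.131. Under IB CYP51A1 was lower at -0.24 ± 0.069 (adjusted p = 0.0105), a call lost without IB library B (0.16) or DMSO library B (0.0589), within 0.00056 to 0.16.

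None of the 3 transport genes was called lower under PU or KPT, against 27.5% and 28.5% of all genes tested, which for 3 genes says little. PU raised 2 of them (66.7%, against 27.6%) and KPT all 3 (100%, against 27.3%). IB raised 2 (66.7%, against 10.1%) and lowered 1 (33.3%, against 9.65%). ABCA1, which exports cholesterol to apolipoproteins, had 224, 252 and 250.4 normalized counts in PU libraries, 565, 589 and 556 in KPT libraries, 229, 221 and 224 in IB libraries, and 184, 177 and 175 in DMSO libraries. KPT libraries stood far above all other MAVER libraries, and the log2 fold change of 1.67 ± 0.083 (adjusted p = 4.59e-20), or 3.17-fold, was the largest of any listed gene in the 4 comparisons with DMSO. It also rose under PU, at 0.43 ± 0.083 (adjusted p = 2.49e-05), and under IB, at 0.33 ± 0.083 (adjusted p = 0.00287), with no overlap with DMSO. ABCG1, which exports cholesterol to lipoprotein particles, had 556, 567 and 584 normalized counts in PU libraries, 319, 321 and 361 in KPT libraries, 381, 352 and 354 in IB libraries, and 235, 269.6 and 282 in DMSO libraries. Here PU libraries were the highest of MAVER, at 1.12 ± 0.079 (adjusted p = 1.52e-15), and KPT and IB libraries overlapped each other above DMSO, at 0.35 ± 0.079 (adjusted p = 0.000237) and 0.47 ± 0.079 (adjusted p = 1.19e-05). STARD4, which carries cholesterol between membranes, had 167, 177 and 162 normalized counts in PU libraries, 267, 236 and 223 in KPT libraries, 120.4, 149.7 and 148 in IB libraries, and 204, 177 and 166 in DMSO libraries. It rose under KPT at 0.41 ± 0.11 (adjusted p = 0.00148) with no overlap, and its PU libraries overlapped DMSO. Under IB it was lower at -0.39 ± 0.11 (adjusted p = 0.00814), a call lost without IB library A (adjusted p = 0.0913) or DMSO library A (0.0868), within 0.00679 to 0.0913.

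In fatty acid synthesis most genes fell under both PU and KPT. PU lowered 7 of 9 genes (77.8%, against 27.5% of all genes tested) and raised ELOVL5, KPT lowered 8 (88.9%, against 28.5%), ELOVL5 among them, and raised none, and IB lowered 4 (44.4%, against 9.65%) and raised ELOVL6. PU and KPT were each set against the same DMSO libraries, so their values stand side by side and are not independent. ACACA, the acetyl-CoA carboxylase that commits carbon to fatty acids, had 665, 609 and 661 normalized counts in PU libraries, 568, 456 and 516 in KPT libraries, 1069, 1038 and 1061 in IB libraries, and 1198, 1197 and 1119 in DMSO libraries. KPT libraries were the lowest and PU libraries came next, at log2 fold changes of -1.19 ± 0.063 (adjusted p = 3.22e-19) for KPT and -0.86 ± 0.063 (adjusted p = 5.19e-15) for PU. FASN, the fatty acid synthase, had 1582, 1588 and 1889 normalized counts in PU libraries, 2437, 2269 and 2632 in KPT libraries, 4182, 3884 and 3642 in IB libraries, and 3637, 3999 and 3645 in DMSO libraries. The order was the other way, with PU lowest at -1.16 ± 0.057 (adjusted p = 1.62e-20) and KPT at -0.62 ± 0.057 (adjusted p = 3.64e-12), and no overlap among PU, KPT and DMSO. SCD, the desaturase that makes oleate, had 1676, 1584 and 1692 normalized counts in PU libraries, 3136, 2941 and 3141 in KPT libraries, 2941, 2946 and 2981 in IB libraries, and 3630.1, 3502 and 3529 in DMSO libraries. PU libraries stood at 0.465 times the DMSO level, a log2 fold change of -1.11 ± 0.043 (adjusted p = 5.71e-24), while KPT and IB overlapped each other just below DMSO at -0.21 ± 0.043 (adjusted p = 6.32e-05) and -0.27 ± 0.043 (adjusted p = 6.02e-06).

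FADS1 and FADS2, neighbouring desaturases of polyunsaturated fatty acids that share exonic sequence in the annotation, fell under all 3 agents. FADS1 had 306, 307 and 316 normalized counts in PU libraries, 399.9, 368 and 373 in KPT libraries, 517, 539 and 533 in IB libraries, and 641, 600.1 and 588 in DMSO libraries. PU libraries were lowest, KPT next and IB next, none reaching DMSO, at -0.97 ± 0.068 (adjusted p = 1.27e-15) under PU, -0.68 ± 0.068 (adjusted p = 3.82e-11) under KPT and -0.20 ± 0.068 (adjusted p = 0.03) under IB. The IB call of FADS1 was lost without IB library A (0.104), B (0.0545) or C (0.0521) or DMSO library A (0.166) or B (0.0544), as adjusted p, within 0.0166 to 0.166. FADS2 had 398, 374 and 431 normalized counts in PU libraries, 547, 495 and 571 in KPT libraries, 504, 488 and 458 in IB libraries, and 821, 784 and 693 in DMSO libraries. Its log2 fold change was -0.93 ± 0.072 (adjusted p = 2.28e-14) under PU, -0.51 ± 0.072 (adjusted p = 1.11e-07) under KPT and -0.66 ± 0.072 (adjusted p = 1.24e-09) under IB, where it was the listed gene that fell most. ACLY, which supplies acetyl-CoA from citrate, had 3464, 3322 and 3491 normalized counts in PU libraries, 3497, 3166 and 3301 in KPT libraries, 4229.7, 4413 and 4405 in IB libraries, and 4484, 4515 and 4354 in DMSO libraries. PU and KPT libraries overlapped each other below IB and DMSO, at -0.38 ± 0.042 (adjusted p = 4.21e-10) and -0.42 ± 0.042 (adjusted p = 2.7e-11).

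The 3 elongases differed from each other. ELOVL1, which extends very long chains, had 518, 564 and 627 normalized counts in PU libraries, 574, 507 and 506 in KPT libraries, 705, 743 and 655 in IB libraries, and 781, 809.7 and 786 in DMSO libraries. PU and KPT libraries overlapped each other below IB and DMSO, at -0.48 ± 0.068 (adjusted p = 1.09e-07) and -0.58 ± 0.068 (adjusted p = 1.44e-09). ELOVL5, which extends polyunsaturated chains, had 1705, 1656 and 1619 normalized counts in PU libraries, 911, 864 and 839.8 in KPT libraries, 1068, 942 and 1084 in IB libraries, and 1218, 1129.8 and 1198 in DMSO libraries. PU libraries were the highest and KPT libraries the lowest, at 0.49 ± 0.055 (adjusted p = 4.93e-10) and -0.44 ± 0.055 (adjusted p = 7.54e-09) over DMSO, so this gene moved against the rest of the group under PU. Under IB it was lower at -0.20 ± 0.055 (adjusted p = 0.0069), a call lost without IB library B (adjusted p = 0.115) or DMSO library A (0.0502), within 0.00346 to 0.115. ELOVL6, which extends palmitate, had 209, 200.03 and 237 normalized counts in PU libraries, 194, 230.5 and 222 in KPT libraries, 527, 533 and 589 in IB libraries, and 230.3, 247 and 267 in DMSO libraries. The IB libraries stood above all other MAVER libraries, at 1.15 ± 0.09 (adjusted p = 1.74e-13) or 2.21-fold over DMSO, the largest change of a listed gene under IB in MAVER. Under PU and KPT ELOVL6 was not called, at -0.20 ± 0.09 (adjusted p = 0.0533) and -0.20 ± 0.09 (adjusted p = 0.0509). Either value passed without DMSO library A, with adjusted p of 0.0328 and 0.0314, within 0.0166 to 0.222 and 0.0287 to 0.522 over the alternatives; PU also passed without PU library C (0.0166) and KPT without KPT library B (0.0287).

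Set directly against KPT, PU gave lower values for cholesterol genes and mixed values for fatty acid genes. Of the 34 genes 21 were lower under PU than under KPT (61.8%, against 28.6% of 11099 genes) and 5 higher (14.7%, against 28.3%), with a median log2 difference of -0.37. The lower genes were 5 of 7 in the mevalonate pathway, 7 of 10 between squalene and cholesterol, 3 of 5 in the SREBP system, 2 of 3 in transport and 4 of 9 in fatty acid synthesis. ABCA1 (-1.23 ± 0.083) and INSIG1 (-1.0044 ± 0.058) differed most in this direction, followed by CYP51A1 (-0.91 ± 0.069), ACAT2 (-0.91 ± 0.069), SCD (-0.90 ± 0.043) and SQLE (-0.73 ± 0.073). The PU and KPT libraries of these 6 genes did not overlap, and the largest adjusted p was 3.05e-11, for SQLE. The 5 genes that were higher under PU were ELOVL5 (0.93 ± 0.055), ABCG1 (0.77 ± 0.079), PMVK (0.34 ± 0.064), ACACA (0.33 ± 0.063) and SCAP (0.25 ± 0.069), where SCAP had the largest adjusted p, 0.00266. LSS (-0.68 ± 0.066), EBP (-0.58 ± 0.06) and DHCR7 (-0.50 ± 0.049) stood lower under PU as well, with adjusted p of at most 1.06e-10.

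For ELOVL6 and ACLY the log2 difference between PU and KPT was 0.0015 ± 0.09 and 0.046 ± 0.042 (± SE) and neither passed the test. HSD17B7 was lower under PU than under KPT at -0.46 ± 0.15 (adjusted p = 0.0103), a call lost without PU library A (0.057) or KPT library B (0.0514), as adjusted p, within 0.00568 to 0.057. SREBF2 was lower at -0.11 ± 0.043 (adjusted p = 0.0307), a call lost without PU library B (0.241), KPT library A (0.135) or KPT library C (0.12), within 0.00512 to 0.726. The remaining lower genes were HMGCS1, MVK, IDI1, FDPS, FDFT1, SREBF1, STARD4, FASN, FADS1 and FADS2, with log2 differences between -0.54 for FASN and -0.30 for FADS1.

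**Figure D3:**
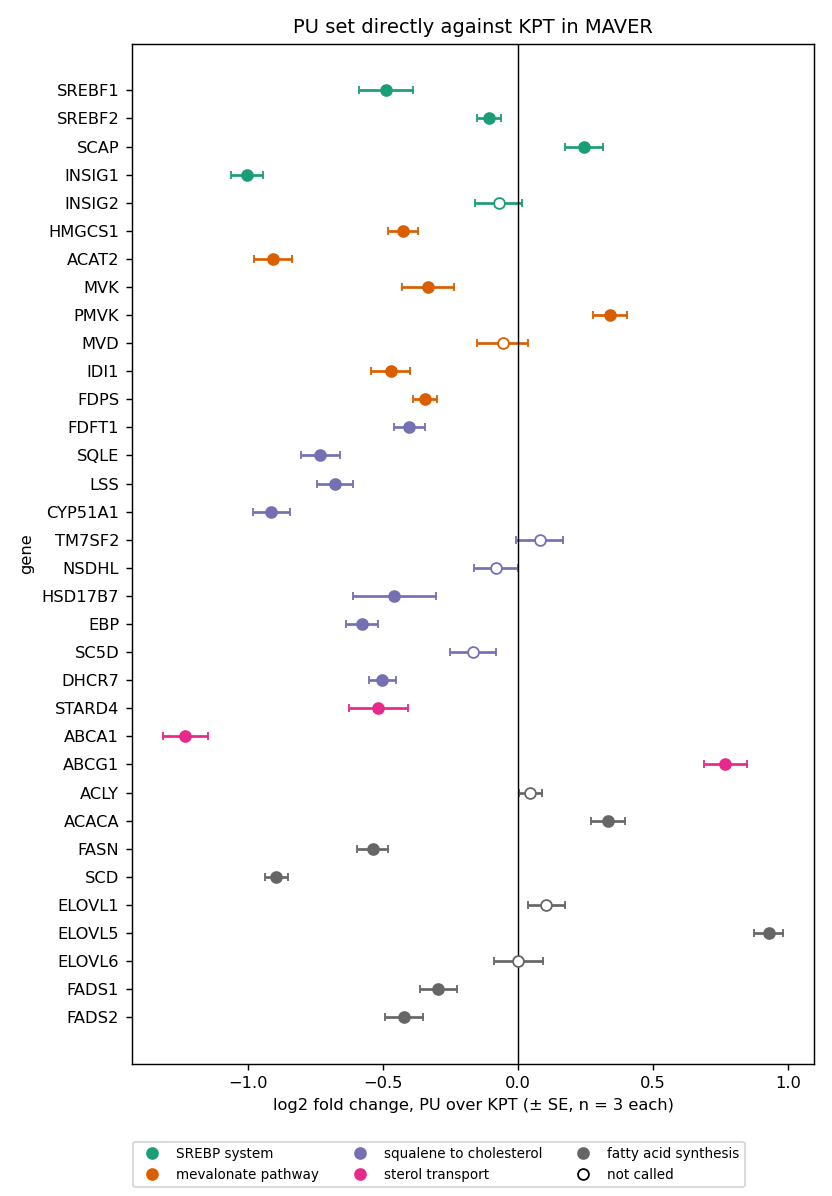
Log2 fold change of PU over KPT in MAVER for each of the 34 genes (points, ± SE, n = 3 libraries each), colored by role, with open points where limma's adjusted p was 0.05 or more. Most sterol genes lie left of 0, 21 genes are lower under PU, and ELOVL5, ABCG1, PMVK, ACACA and SCAP lie to the right.

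KPT and IB differed by role as well. Of the 34 genes 15 were higher under KPT than under IB (44.1%, against 27% of 11099 genes) and 11 lower (32.4%, against 28.2%), with a median log2 difference of 0.083. The higher ones included 7 of 10 genes between squalene and cholesterol and 3 of 7 in the mevalonate pathway, and the lower ones 7 of 9 in fatty acid synthesis. ABCA1 (1.34 ± 0.083), HSD17B7 (0.98 ± 0.15) and STARD4 (0.80 ± 0.11) were the most raised, and ELOVL6 (-1.35 ± 0.09) and ACACA (-1.04 ± 0.063) the most lowered. The KPT and IB libraries of these 5 genes did not overlap, and the largest adjusted p was 8.68e-07, for HSD17B7. PU against IB gave 23 lower genes (67.6%, against 27.6%) and 8 higher ones (23.5%, against 27.5%), with a median log2 difference of -0.26. ELOVL6 (-1.35 ± 0.09), FASN (-1.21 ± 0.057), SQLE (-0.91 ± 0.073) and SCD (-0.84 ± 0.043) led the lower genes. ELOVL5 (0.69 ± 0.055) and ABCG1 (0.65 ± 0.079) led the higher ones. The largest adjusted p among these 6 was 3.67e-09, for ABCG1. Of the 26 calls between KPT and IB 22 held in every alternative run, and of the 31 between PU and IB 24 did, the 11 named here among them.

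In JEKO1 the libraries labelled IB had 15 of the 34 genes higher than those labelled DMSO, with FADS2, MVD, STARD4 and ELOVL5 raised most. By role the higher genes were 4 of 7 in the mevalonate pathway (57.1%, against 21.9% of all genes tested), 4 of 10 between squalene and cholesterol (40%), 1 of 5 in the SREBP system (20%, near the background), 1 of 3 in transport and 5 of 9 in fatty acid synthesis (55.6%). The 4 lower genes were CYP51A1, SCAP, ABCA1 and ELOVL6. FADS2 had 2149, 1969 and 1801 normalized counts in libraries labelled IB and 1025, 1022 and 974 in libraries labelled DMSO. The values of the IB-labelled libraries were 1.95-fold higher, a log2 fold change of 0.97 ± 0.058 (adjusted p = 4.44e-11). ELOVL5 had 1394, 1394 and 1426 normalized counts in libraries labelled IB and 831, 849 and 904 in libraries labelled DMSO, and FADS1 had 2366, 2243 and 2349 normalized counts in libraries labelled IB and 1608, 1589 and 1609 in libraries labelled DMSO. Both sets lay apart, at 0.71 ± 0.052 (adjusted p = 1.05e-09) for ELOVL5 and 0.53 ± 0.044 (adjusted p = 6.83e-09) for FADS1. ELOVL6 had 470.1, 476 and 457 normalized counts in libraries labelled IB and 600.3, 587 and 704 in libraries labelled DMSO. It was the listed gene lowered most, at -0.43 ± 0.072 (adjusted p = 7.46e-05), again with no overlap.

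Among sterol genes of JEKO1, MVD had 843, 701 and 680.1 normalized counts in libraries labelled IB and 473, 459 and 394 in libraries labelled DMSO, and STARD4 had 208, 208 and 154 normalized counts in libraries labelled IB and 116, 96.1 and 126 in libraries labelled DMSO. Both were higher in the libraries labelled IB without overlap, at 0.74 ± 0.083 (adjusted p = 4.43e-07) for MVD and 0.74 ± 0.13 (adjusted p = 0.000149) for STARD4. SREBF1 had 365, 365 and 410.2 normalized counts in libraries labelled IB and 244, 260.4 and 218 in libraries labelled DMSO, a log2 fold change of 0.66 ± 0.087 (adjusted p = 4.21e-06). FDFT1 had 4277, 4248 and 4256 normalized counts in libraries labelled IB and 3096, 3238 and 3190.3 in libraries labelled DMSO, at 0.42 ± 0.039 (adjusted p = 3.56e-08), and TM7SF2 had 310.5, 274 and 268 normalized counts in libraries labelled IB and 233, 235 and 201 in libraries labelled DMSO, at 0.35 ± 0.094 (adjusted p = 0.00504). In each of these the libraries of the 2 labels stood apart. ACAT2 (0.25 ± 0.063) and FDPS (0.19 ± 0.049) were higher too, with adjusted p of 0.00268 and 0.00301. SCAP had 1074, 957 and 924 normalized counts in libraries labelled IB and 1244, 1194 and 1141 in libraries labelled DMSO, and was lower at -0.28 ± 0.06 (adjusted p = 0.000826) with no overlap. INSIG1 had 1456, 1272 and 1258 normalized counts in libraries labelled IB and 1437, 1376 and 1453 in libraries labelled DMSO. Its libraries overlapped, and the log2 fold change of -0.10 ± 0.057 (adjusted p = 0.165) did not pass the test, though it did without the IB-labelled library A (adjusted p = 0.0179, range 0.0179 to 0.443).

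The 15 listed genes not called in JEKO1 lay between -0.20 for INSIG2 and 0.20 for ELOVL1. The other JEKO1 calls were small or depended on the setting. ABCA1 had 716, 728 and 661 normalized counts in libraries labelled IB and 877, 848 and 742 in libraries labelled DMSO, lower at -0.23 ± 0.067 (adjusted p = 0.00962) with no overlap, and lost its call without DMSO-labelled library A (adjusted p = 0.0716, range 0.000375 to 0.0791). CYP51A1 had 393, 384 and 399 normalized counts in libraries labelled IB and 443, 418 and 484 in libraries labelled DMSO, lower at -0.19 ± 0.073 (adjusted p = 0.041). This call was lost without IB-labelled library A (0.0737), B (0.115) or C (0.0567), or DMSO-labelled library A (0.0813) or C (0.167), within 0.0186 to 0.167. DHCR7 was higher at 0.23 ± 0.081 (adjusted p = 0.0263) and lost its call without IB-labelled library A (0.199) or DMSO-labelled library B (0.0597) or C (0.108), within 0.000504 to 0.199. PMVK was higher at 0.21 ± 0.063 (adjusted p = 0.0118) and lost its call without IB-labelled library A (0.0503) or DMSO-labelled library C (0.0667), within 0.000748 to 0.0832. ACLY was higher at 0.14 ± 0.043 (adjusted p = 0.0136) and lost its call without IB-labelled library A (0.0571) or B (0.0524) or DMSO-labelled library C (0.0517), within 0.000843 to 0.107. EBP at 0.25 ± 0.068 (adjusted p = 0.00523) and FASN at 0.21 ± 0.047 (adjusted p = 0.00104) were higher in every reduced set of libraries. Both lost their calls when limma's variance prior had no trend, at 0.055 for EBP (range 0.000192 to 0.055) and 0.0578 for FASN (range 1.27e-07 to 0.0578). DMSO-labelled library C is the library of this line rich in RNA45S5, and without it 15 of the 34 genes were called, 12 higher and 3 lower.

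The IB response of the 34 genes differed between the lines in 21 cases. The difference, the JEKO1 log2 change minus the MAVER one, was positive for 16 genes (47.1%, against 21.7% of 10632 genes) and negative for 5 (14.7%, against 19.6%), with a median of 0.21. FADS2 differed most in the positive direction at 1.63 ± 0.092 (adjusted p = 1.13e-13), followed by STARD4 (1.13 ± 0.19), MVD (0.91 ± 0.14), ELOVL5 (0.90 ± 0.078) and FADS1 (0.73 ± 0.069), whose adjusted p was at most 2.28e-05. ELOVL6 differed most in the negative direction at -1.57 ± 0.11 (adjusted p = 5.46e-12), followed by ABCA1 (-0.56 ± 0.10) and SCAP (-0.36 ± 0.085), with adjusted p of 0.000101 and 0.00142. Of the 10 listed genes called in both lines, 9 (90%) went opposite ways, lower in 1 line and higher in the other, and CYP51A1 was lower in both. Over all genes called in both lines 1260 of 1415 (89%) went opposite ways, so the listed genes were at the background in this. These opposite directions, and the presence, size and sign of each difference between the lines, rest on the JEKO1 labels as given.

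**Figure D4:**
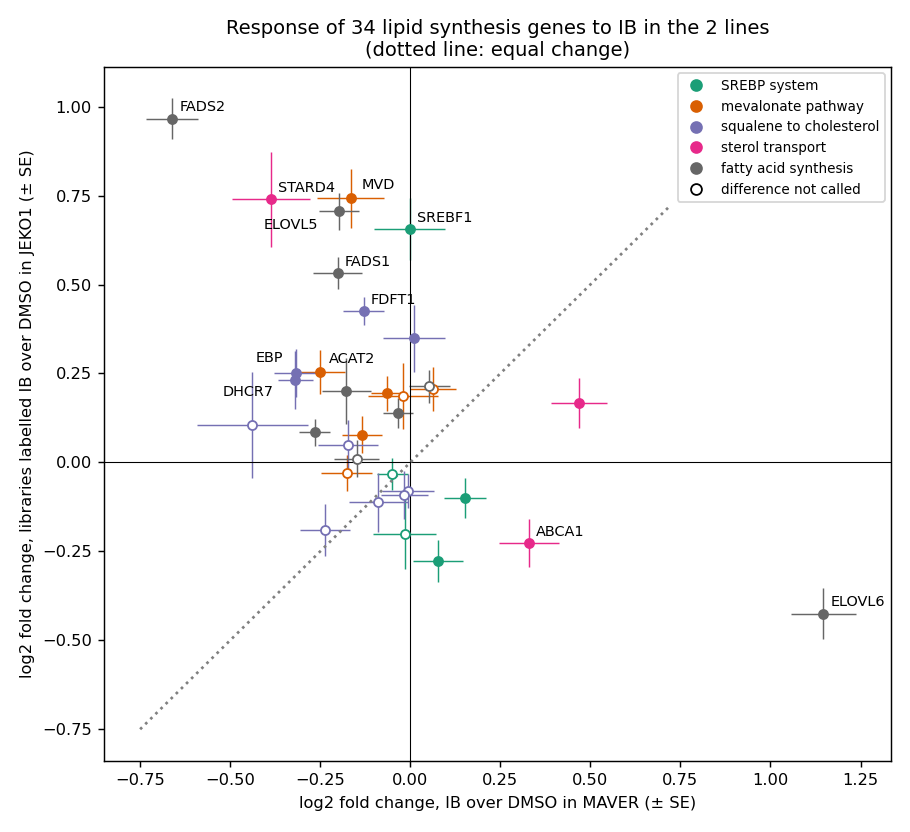
Log2 fold change over DMSO of each listed gene in JEKO1 libraries labelled IB (vertical axis) and in MAVER IB libraries (horizontal axis), ± SE, colored by role, with open points where the difference between lines had an adjusted p of 0.05 or more. FADS2 and STARD4 lie at the upper left and ELOVL6 at the lower right, far from the dotted line of equal change.

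Genes of the same pathways outside the 34 were read as a frame. Of 16 other sterol and isoprenoid genes tested in MAVER, PU lowered 5 (31.2%, near the 27.5% over all genes) and raised 2 (12.5%, against 27.6%), KPT lowered 8 (50%, against 28.5%) and raised 2 (12.5%, against 27.3%), and IB lowered 3 (18.8%, against 9.65%) and raised 1 (6.25%, against 10.1%). MSMO1, the sterol methyl oxidase, fell under PU at -0.50 ± 0.078 (adjusted p = 6.46e-07) and rose under KPT at 0.25 ± 0.078 (adjusted p = 0.00677), as CYP51A1 and LSS did. NPC2, which takes cholesterol out of lysosomes, rose under both, at 0.50 ± 0.079 (adjusted p = 1.08e-06) and 0.91 ± 0.079 (adjusted p = 6.68e-13). MSMO1 and NPC2 were the 2 genes of this list that KPT raised, and the 8 that it lowered are not named here. The lowest log2 fold change of the list was -1.21 under PU and -0.49 under KPT, each in a gene not named here. In JEKO1, 3 of 15 such genes were higher (20%, against 21.9%) and 4 lower (26.7%, against 20.2%), both near the background.

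Of 14 genes that process SREBPs or sense sterols, PU raised 5 (35.7%, against 27.6% of all genes) and lowered 3 (21.4%, against 27.5%), and KPT raised 5 (35.7%, against 27.3%) and lowered 4 (28.6%, against 28.5%). IB in MAVER raised 3 (21.4%, against 10.1%) and lowered none, and the IB label in JEKO1 went with 1 higher (7.14%, against 21.9%) and 8 lower (57.1%, against 20.2%). MYLIP, a liver X receptor target that degrades lipoprotein receptors, rose under PU at 1.16 ± 0.087 (adjusted p = 1.17e-14), KPT at 1.0006 ± 0.087 (adjusted p = 9.76e-13) and IB at 0.42 ± 0.087 (adjusted p = 0.000319). The same agents raised ABCA1 and ABCG1. SREBF1, also known to be raised by these receptors, went otherwise. Its log2 fold change was -0.78 under PU and -0.29 under KPT, both called lower, and -0.0018 under IB, not called. A role of the receptors was not tested. RXRA, the partner of the liver X receptors, had 479, 488 and 531 normalized counts in PU libraries, 366, 329 and 334 in KPT libraries, 768, 753 and 719 in IB libraries, and 339, 375 and 368 in DMSO libraries. IB libraries stood highest, at 1.05 ± 0.07 (adjusted p = 1.65e-15), whereas in JEKO1 it was lower at -0.67 ± 0.10 (adjusted p = 1.06e-05).

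Among other genes of fatty acid and lipid synthesis 25 were tested in MAVER, where PU lowered 8 (32%, near the 27.5% over all genes) and raised 4 (16%, against 27.6%), KPT lowered 11 (44%, against 28.5%) and raised 6 (24%, near 27.3%), and IB lowered 3 and raised 3 (12% each, near 9.65% and 10.1%). PCYT2, which makes the activated head group of phosphatidylethanolamine, fell most under KPT at -1.38 ± 0.11 (adjusted p = 9.51e-14). In JEKO1, 12 of 26 were higher (46.2%, against 21.9%) and 5 lower (19.2%, against 20.2%), led by AGPAT2, an acyltransferase that makes phosphatidic acid, at 1.14 ± 0.17 (adjusted p = 1.42e-05) and ELOVL2, another elongase, at 0.77 ± 0.078 (adjusted p = 1.29e-07). Of 20 genes of fatty acid oxidation, the reverse process, PU raised 4 (20%, against 27.6%) and lowered 8 (40%, against 27.5%), and KPT raised 11 (55%, against 27.3%) and lowered 5 (25%, against 28.5%). IB in MAVER raised 2 and lowered 2 (10% each, at the background), and in JEKO1 9 were higher (45%, against 21.9%) and 2 lower (10%, against 20.2%). ACADM, a medium-chain dehydrogenase, rose under KPT at 0.86 ± 0.045 (adjusted p = 1.88e-19) and fell under PU at -0.29 ± 0.045 (adjusted p = 4.53e-07), and ACADS, its short-chain counterpart, rose under both at 0.67 ± 0.10 (adjusted p = 1.94e-07) under KPT and 1.06 ± 0.10 (adjusted p = 2.86e-12) under PU. PPARGC1B, a coactivator of oxidative genes, fell under PU at -1.68 ± 0.11 (adjusted p = 5.55e-16) and KPT at -1.85 ± 0.11 (adjusted p = 3.64e-17).

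By GENCODE release 29, 14 of the 34 genes share exonic sequence with another gene, 6 of them with a protein-coding one: ACAT2, CYP51A1, FADS1, FADS2, MVK and TM7SF2. The libraries were made with a stranded kit, and no label or file header says whether the counting used strand, so reads of these genes and their overlapping partners may be mixed. FADS2 overlaps FEN1, TM7SF2 overlaps VPS51 and CYP51A1 overlaps AC000120.2 and AC000120.3 on the same strand. Counting by strand would not separate these.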

How the data were processed

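The 18 libraries are total RNA from MAVER and JEKO1 cells, made with a stranded kit and read as single ends, per the labels' protocols. Per the submitters' processing notes, reads were aligned with STAR to hg19, abundance was estimated with Cufflinks and DESeq2 was used. The deposited values are 1 signal table per cell line: normalized counts, scaled by the authors. For each table, 100% of values were whole multiples, within 0.01, of 1 factor per library, which gave back the reads. Gene levels of the 2 tables were not compared.

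The main test was limma 3.58.1 in R 4.3.3 (lmFit, eBayes with trend) on log2(normalized count + 1), over genes with a mean of at least 10, with Benjamini-Hochberg adjustment over all genes tested and calls at an adjusted p under 0.05. The 4 MAVER groups shared 1 fit, the 2 JEKO1 groups another, and the difference between lines was an interaction term over 12 libraries. The limma and edgeR steps were also run on simulated counts, for some of the comparisons. The changes planted there were larger than most of those reported here, so that run says little about small changes. Alternatives were other pseudocounts, filters and scalings, no variance trend, a replicate block, edgeR 4.0.16 and DESeq2 1.42.0 on the recovered reads, and libraries left out. Values in every library are given for up to 8 called listed genes per direction and comparison, by size of change, and up to 3 for each list of other genes.

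The 34 genes, the lists and the limit of 50000 for RNA45S5 were chosen with earlier results of these data known. Sequences are from RefSeq (GRCh38.p14) and overlaps from GENCODE release 29, used for names only, since its build is not that of the files.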

Additional observations from a re-analysis of the deposited data

Results flagged for a closer look

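The IB response of 21 listed genes differed between JEKO1 and MAVER by limma's interaction term with Benjamini-Hochberg adjustment. Each value is the JEKO1 log2 change minus the MAVER one. Its size, its direction and whether it was called all rest on the JEKO1 labels as given. In fatty acid synthesis it was 1.63 for FADS2, 0.90 for ELOVL5, 0.73 for FADS1, 0.38 for ELOVL1, 0.35 for SCD, 0.17 for ACLY and -1.57 for ELOVL6. In the mevalonate pathway it was 0.91 for MVD, 0.50 for ACAT2, 0.26 for FDPS and 0.21 for HMGCS1. Between squalene and cholesterol it was 0.57 for EBP, 0.55 for FDFT1, 0.55 for DHCR7 and 0.34 for TM7SF2. In the SREBP system it was 0.66 for SREBF1, -0.36 for SCAP and -0.25 for INSIG1, and in transport it was 1.13 for STARD4, -0.56 for ABCA1 and -0.30 for ABCG1.

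Of these, 17 kept their call in every alternative run. HMGCS1 lost it without the IB-labelled JEKO1 library A (adjusted p = 0.0795), the DMSO-labelled JEKO1 library B (0.062) or the MAVER DMSO library C (0.0519), and without a trend in limma's variance prior (0.0565), within a range of 0.0074 to 0.0795. ABCG1 lost it without JEKO1 libraries IB B (0.119), DMSO A (0.0651) or DMSO B (0.0758) or MAVER libraries IB A (0.0805) or DMSO A (0.114), without the trend (0.0686) and by DESeq2 on the recovered reads (0.0599), within 0.0163 to 0.119. TM7SF2 lost it without JEKO1 libraries IB A (0.115) or DMSO C (0.11) or MAVER libraries IB C (0.129), DMSO A (0.0543) or DMSO B (0.113), without the trend (0.0692), without a filter on low values (0.0567) and by DESeq2 (0.0514), within 0.0184 to 0.129. ACLY lost it only without the trend (0.0616, within 0.00516 to 0.0616). Without the DMSO-labelled JEKO1 library C, the one rich in RNA45S5, 20 of the 34 genes were called, 15 higher and 5 lower, and TM7SF2 was the gene lost.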

How the results depend on the processing

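No listed gene changed direction while called, in any of the 8 comparisons and alternatives run. The count of listed genes called moved by more than 1.5 times once: between the JEKO1 libraries labelled IB and those labelled DMSO it was 12 (10 higher, 2 lower) without a variance trend, against 19 (15 higher, 4 lower) with it. Leaving out 1 library at a time gave 27 to 30 calls for PU against 29 with all libraries, 21 to 24 for KPT against 26, 9 to 13 for IB in MAVER against 13, 15 to 20 in JEKO1 against 19, 19 to 22 for the difference between lines against 21, 25 to 26 for PU over KPT against 26, 23 to 27 for KPT over IB against 26 and 28 to 31 for PU over IB against 31. On the recovered reads edgeR called 6425 genes for PU, 6171 for KPT, 2347 for IB in MAVER and 4923 in JEKO1, and of the listed genes 30, 26, 14 and 20. DESeq2 called fewer, in the same order 5816, 5601, 1896 and 4076 genes, and of the listed genes 29, 25, 12 and 18. The main fit called 6121, 6202, 2197 and 4879 genes. The kept calls, in every alternative run, were 26 of 29 for PU, 18 of 26 for KPT, 8 of 13 for IB in MAVER and 12 of 19 in JEKO1. Under other scalings the median log2 fold change of all genes lay between -0.042 and 0.058. The letters A, B and C gave little sign of pairing by correlation: of 21 correlations of same-letter deviations, between -0.0918 and 0.118, 2 were over 0.1. The highest was for letter C in JEKO1. Over all genes tested, a block by letter gave 5507 calls in JEKO1, against 4879 without it. For each agent against DMSO in MAVER it gave fewer calls than the fit without it. The replicate block gave 30 calls for PU, 27 for KPT, 13 for IB in MAVER, 22 in JEKO1, 24 for the difference, 26 for PU over KPT, 26 for KPT over IB and 31 for PU over IB. The cause of these shifts was not tested. The KPT libraries were the shallowest, with 5374226 to 7924550 reads, which limits the precision of their values.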
